A study of Mus musculus with 20 samples.

Results

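The genes described here are Tnf, which encodes the inflammatory cytokine TNF-α, and the genes beside it in the class III region of the mouse major histocompatibility complex on chromosome 17. The probe sets were chosen by gene symbol in the platform annotation, with the probe set of the highest mean standing for a gene. Of 7 listed genes, 6 were measured (Tnf, Lta, Ltb, Lst1, Aif1 and Nfkbil1), each by 1 probe set, out of 19505 genes with a symbol. No probe set carried the symbol of the remaining gene, Ddx39b, and it is not analysed here. The tissue was the whole epididymal fat pad of male C57BL/6 littermates, 1 array per mouse. All mice carried floxed Tnf on both chromosomes (TNF-αFlox/FLox). The 10 mice called cre also had 1 copy of LyzM-Cre (LyzMcre+/-), a driver of recombination in macrophages, monocytes and neutrophils that leaves Tnf in most other cells of the pad. The 10 mice called wt lacked it (LyzMcre-/-), so wt here means floxed without Cre. From 10 weeks of age, chow was replaced for 18 weeks by a purified diet in which fat supplied 40% of calories, and the mice were 28 weeks old at sampling. The arrays were run in 2 batches, with 5 wt and 5 cre mice in each. The comparison asks how myeloid deletion of Tnf showed in the RNA of the fat pad on this diet. Here it also asks whether the genes around Tnf differed with it. Every array came from floxed mice, so any effect of the Cre itself cannot be told apart from that of losing Tnf.

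TNF-α is made mainly by macrophages, as a membrane protein that is cut to a soluble trimer, and it acts through its receptors TNFR1 and TNFR2. It has long been studied in obese fat, where macrophages accumulate and it opposes insulin action. Lta and Ltb encode lymphotoxin α and β, members of the same ligand family made mainly by lymphocytes. Lymphotoxin α alone binds the TNF receptors, while the heterotrimer with lymphotoxin β binds the lymphotoxin β receptor and directs the building of lymphoid tissue. Lst1 encodes a small membrane protein of leukocytes, chiefly of the myeloid line, and Aif1 encodes IBA1, a calcium-binding protein widely used as a macrophage and microglia marker. Nfkbil1 encodes an ankyrin-repeat protein similar to the IκB proteins, expressed in many cell types.

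The genes lie close together in the mm10 build. Tnf runs from 35199367 to 35202007 on chromosome 17. Lta lies 1158 bases beyond it (35203165 to 35205578) and Ltb lies 3062 bases before it (35194507 to 35196305). Lst1 (35185095 to 35188440) and Aif1 (35170986 to 35176083) follow on the side of Ltb, at 10927 and 23284 bases from Tnf. Nfkbil1 (35220175 to 35236481) follows on the side of Lta, at 18168 bases. Tnf and Lta are read from the minus strand and Ltb from the plus strand, so that Tnf and Ltb run towards each other and their starts lie at the outer ends. RefSeq promoter sequences of GRCm38.p6 matched 5 of the 6 genes, all but Lst1. The 250 bases before the annotated start are shown for Tnf, whose difference passed adjustment, and for Ltb, its neighbour on the other side from Lta. This sets the deleted gene's own promoter beside that of an adjacent ligand gene. Capitals mark matches on either strand to TATAAA, to AGGAAGT (an ETS-type motif) and to the κB motif, and no 2 matches overlapped.
Tnf, chr17:35202008-35202257, minus strand: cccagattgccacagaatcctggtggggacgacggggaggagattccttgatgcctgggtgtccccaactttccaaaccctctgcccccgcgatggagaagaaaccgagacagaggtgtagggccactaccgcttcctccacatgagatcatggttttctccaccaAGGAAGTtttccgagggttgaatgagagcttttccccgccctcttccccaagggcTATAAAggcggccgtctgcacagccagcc
Ltb, chr17:35194257-35194506, plus strand: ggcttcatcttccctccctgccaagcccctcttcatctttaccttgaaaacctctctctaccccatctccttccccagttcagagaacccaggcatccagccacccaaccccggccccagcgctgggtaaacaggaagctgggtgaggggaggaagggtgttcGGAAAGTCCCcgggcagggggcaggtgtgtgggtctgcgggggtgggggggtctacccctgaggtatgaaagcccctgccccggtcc
In the Tnf window, AGGAAGT lies 84 to 78 bases and TATAAA 29 to 24 bases before the start. The Ltb window holds a κB match 87 to 78 bases before the start, on the opposite strand. Of 32851 promoter windows of this length in the table, 12.4% held TATAAA, 7.69% AGGAAGT and 3.90% a κB match. These are matches of letters and not measured sites. The sources used here do not say how far the floxed part of Tnf reaches, whether it takes in any of this sequence, or whether the Tnf probes lie inside it.

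The deposited values are log2 signals, and array medians lay between 6.49 and 6.58. All 11 measured adipocyte markers stood at or above percentile 92.2 of the values on each array. Macrophage markers had a mean of 12.27 to 14.11 in wt and 10.80 to 13.40 in cre mice, with the 2 lowest values in cre replicates 9 and 7. A mean of 10 liver genes ran from 6.29 to 14.59 over the pads and a mean of 7 seminal vesicle genes from 4.02 to 16.80. By these lists 4 mice stood apart, wt replicates 4, 6 and 9 and cre replicate 3; without them the Tnf difference given next was −2.04 (limma adjusted p = 0.0112) and that of Lst1 −0.92 (limma adjusted p = 0.755). In whole tissue, fewer cells of a type and less RNA per cell cannot be told apart. Precision is limited by the 10 mice per genotype.

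Tnf was the only measured gene of this region whose difference passed adjustment, and it was lower in cre mice. In wt mice of batch 1 its log2 signal was 6.24, 6.08, 7.80, 5.78 and 7.10, and in those of batch 2 it was 7.59, 6.52, 6.04, 6.44 and 7.05. In cre mice of batch 1 it was 4.97, 4.37, 4.46, 4.63 and 4.41, and in those of batch 2 it was 4.53, 5.05, 5.07, 5.34 and 3.91. Every cre value lay below every wt value, a separation seen in the same direction for 0.00901% of all 22206 probe sets. The wt mice with the highest signals were replicates 5 and 2. The mean difference was −1.99 (95% interval −2.54 to −1.44), or 3.97-fold lower in cre, and Tnf passed adjustment over all probe sets (limma adjusted p = 0.000822), as 0.0045% of them did. An exact two-sided permutation of genotype within batches gave p = 3.15e-05, the smallest value that its 63504 regroupings allow. Each batch alone gave the smallest p of its 252 regroupings in the exact permutation test, p = 0.00794, and the genotype difference did not differ detectably between batches (interaction 0.08, limma adjusted p = 0.982). The median cre signal stood at percentile 22.6 of its array and the median wt signal at percentile 49.6. How much background the lower signals hold was not tested.

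**Figure D1:**
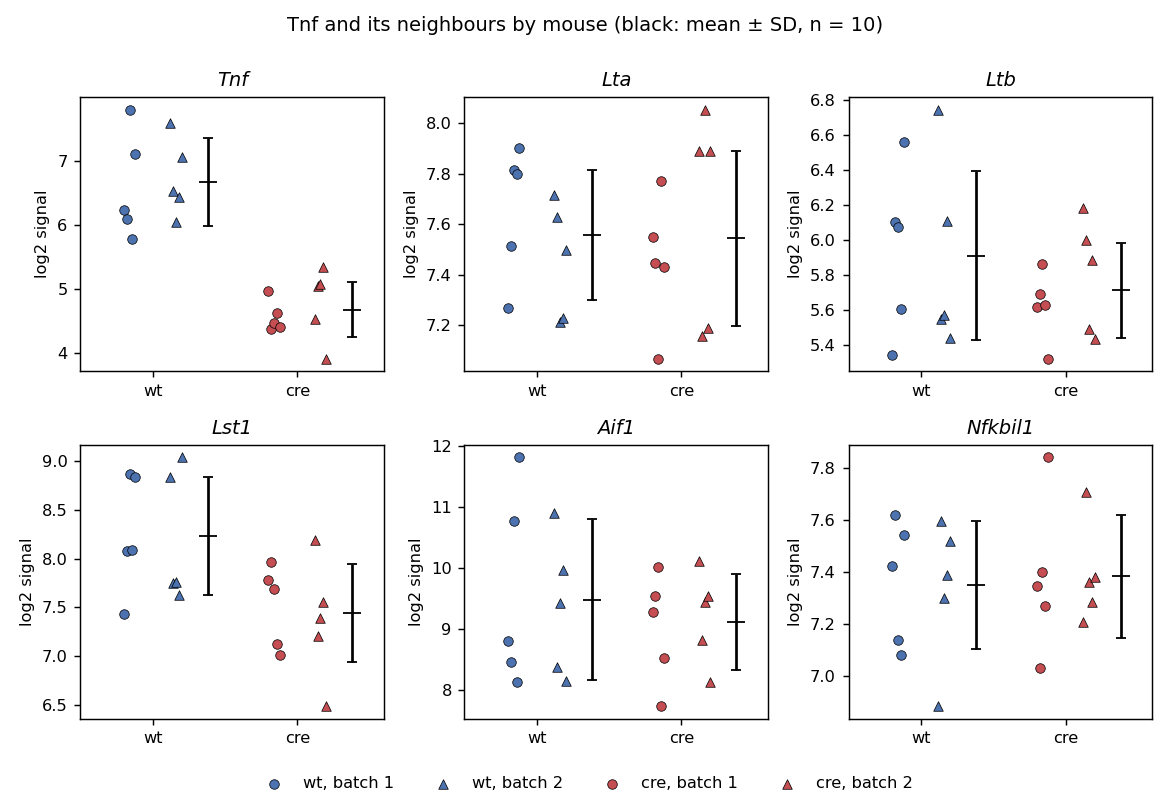
Log2 signals of Tnf, Lta, Ltb, Lst1, Aif1 and Nfkbil1, 1 panel per gene with its own vertical axis; each point is a mouse (wt blue, cre red, circles batch 1, triangles batch 2) and black bars are the mean ± SD of 10 mice. The groups separate fully for Tnf, lie apart with overlap for Lst1, and overlap widely for the other 4 genes.

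The lymphotoxin genes on either side of Tnf did not pass the test. Lta, which lies nearest to Tnf, had a lowest, median and highest log2 signal of 7.21, 7.57 and 7.90 in wt and of 7.07, 7.50 and 8.05 in cre mice. The groups overlapped throughout, and the cre mice spanned the whole wt range. The difference was −0.01 (95% interval −0.31 to 0.28, limma adjusted p = 0.990), so at this number of mice a change beyond 1.24-fold in either direction lies outside the interval. It was −0.21 in batch 1 and 0.18 in batch 2, with an interaction that did not pass (limma adjusted p = 0.789). Ltb had 5.34, 5.84 and 6.74 in wt and 5.32, 5.66 and 6.18 in cre mice. Its 2 highest values belonged to wt replicates 2 and 9, and the remaining wt mice lay within the cre range. The difference was −0.20 (95% interval −0.58 to 0.18, limma adjusted p = 0.864, exact permutation p = 0.286).

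Lst1 differed more than the other neighbours, without passing adjustment. In wt mice of batch 1 its log2 signal was 7.43, 8.08, 8.87, 8.09 and 8.83, and in those of batch 2 it was 8.84, 7.75, 7.76, 7.63 and 9.04. In cre mice of batch 1 it was 7.79, 7.96, 7.69, 7.12 and 7.01, and in those of batch 2 it was 8.19, 7.20, 7.39, 7.56 and 6.48. The groups overlapped: each of the 10 cre values was under the wt mean, 5 were also under the lowest wt value, and 4 wt values exceeded the highest cre value. The means were 8.23 ± 0.61 in wt and 7.44 ± 0.50 in cre mice (SD, n = 10 each). The difference was −0.79 (95% interval −1.33 to −0.25), 1.73-fold lower, with an unadjusted p of 0.00303 and a limma adjusted p = 0.770. An unadjusted p under 0.05 in this direction was reached by 3.05% of all probe sets. The exact permutation within batches gave p = 0.00690 for this single gene. It was −0.75 in batch 1 and −0.84 in batch 2, and between −0.89 and −0.69 when single mice were left out. The study's own thresholds were an unadjusted p under 0.05 with at least a 1.5-fold difference. Applied to the limma fit used here, they take 1.04% of all probe sets and 2 of these 6 genes, Tnf and Lst1.

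Aif1, widely used as a macrophage marker, varied most between mice. Its lowest, median and highest log2 signals were 8.12, 9.11 and 11.83 in wt and 7.73, 9.36 and 10.11 in cre mice. Wt replicates 9, 2 and 5 lay above all cre mice, while the cre median was the higher one. The mean difference of −0.36 had a wide interval (95% −1.43 to 0.70, limma adjusted p = 0.900), within which both a 2.69-fold lower and a 1.62-fold higher level lie. Nfkbil1 had 6.88, 7.41 and 7.62 in wt and 7.03, 7.35 and 7.84 in cre mice, an overlap over nearly the full range. Its difference was 0.03 (95% interval −0.20 to 0.27, limma adjusted p = 0.970), 0.02 in batch 1 and 0.05 in batch 2. For these 6 genes 0 interactions with batch passed limma's adjustment, and 0 had an unadjusted p under 0.05, as 7.41% of all probe sets did. Between batches as such, 0 of the 6 genes reached an unadjusted p under 0.05 in limma, beside 0.572% of all probe sets.

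Whether the difference of Tnf exceeded that of each neighbour was tested within mice, on Tnf minus the neighbour's log2 signal, in 5 comparisons by exact permutation within batches. The Tnf difference minus that of the neighbour was −1.98 for Lta, −1.79 for Ltb, −1.20 for Lst1 and −2.02 for Nfkbil1, each with exact permutation p = 3.15e-05, the smallest possible. For Aif1 it was −1.63 (exact permutation p = 0.00123). In batch 1 alone the Aif1 comparison gave −1.46 (exact permutation p = 0.0556), and all the other comparisons kept an exact p of 0.00794 in each batch. The test therefore also separated Tnf from Lst1, its neighbour with the next largest difference. All 5 comparisons use the same values of Tnf, the gene deleted by design, so they are not independent of each other.

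The wider region showed no further call. Of 18 protein-coding genes with an end within 100 kb of Tnf, 16 were measured. Without Tnf, 12 of these 15 neighbours had a lower and 3 a higher mean in cre, where 49.3% of all probe sets had a lower one, with a median difference of −0.09 against 0.00 over all probe sets, and 0 passed adjustment. An unadjusted p under 0.05 was reached by 1 of the 15, Lst1, beside 6.29% of all probe sets in either direction. Bag6, a chaperone of newly made proteins, differed by −0.35 (95% interval −0.79 to 0.08) and Gpank1 by −0.36 (−0.75 to 0.02). The large proline-rich gene Prrc2a, between Bag6 and Aif1, differed by 0.00 (−0.26 to 0.26). Atp6v1g2, a proton pump subunit gene on the far side of Nfkbil1, differed by −0.04 (−0.41 to 0.34). Apom, the apolipoprotein M gene, differed by 0.12, Ly6g5b by −0.09, Ly6g5c by −0.16 and Abhd16a by −0.03.

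Over the class III region as a listed set of 57 genes, 52 were measured. Without Tnf, 38 of 51 had a lower and 13 a higher mean in cre, where 49.3% of all probe sets had a lower one. The median difference was −0.10, against 0.00 over all probe sets. In limma's fit 4 lower and 1 higher reached an unadjusted p under 0.05, as 3.05% and 3.24% of all probe sets did. None of the 51 passed limma's adjustment, where the smallest adjusted p was 0.770. Beside Lst1, the lower ones were Neu1, the lysosomal sialidase, with −0.47 (SE 0.21), Lsm2, of the spliceosomal Sm-like proteins, with −0.54 (SE 0.24), and Atf6b, an endoplasmic reticulum stress factor, with −0.38 (SE 0.18). Atf6b differed by −0.72 in batch 1 and −0.04 in batch 2. Higher was Ager, the receptor for advanced glycation end products, with 0.37 (SE 0.15), followed by the higher means of Stk19 (0.23) and Ly6g6c (0.20), which did not reach that level. The listed set was written with earlier results of these data known, and its counts are a description.

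**Figure D2:**
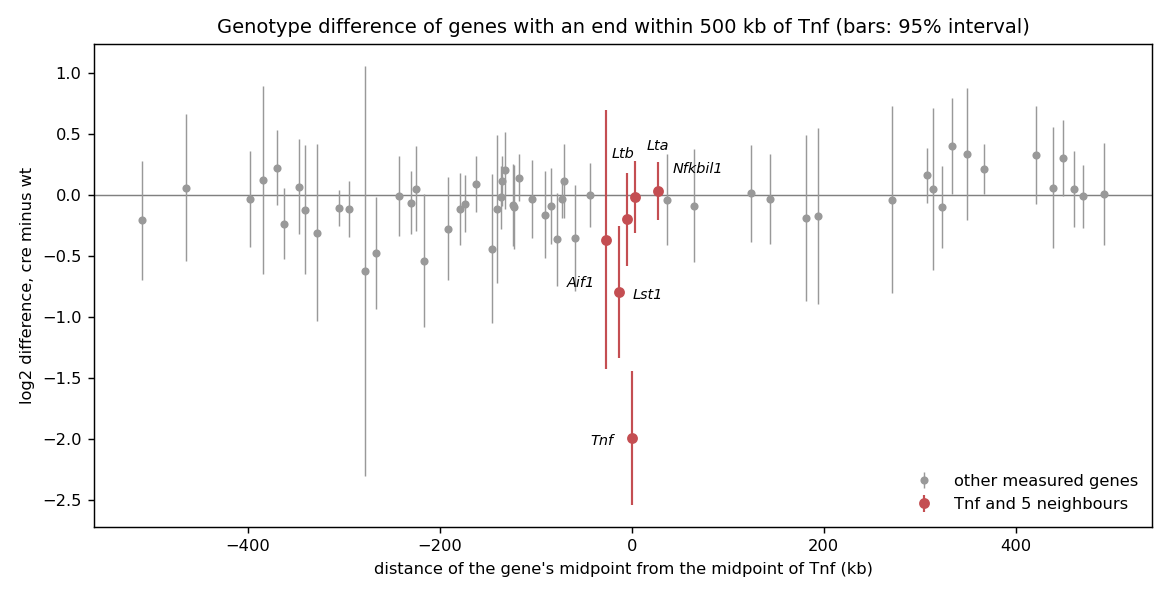
Log2 difference (cre minus wt, bars 95% interval, n = 10 mice per genotype) of the 62 measured genes with an end within 500 kb of Tnf, by the distance of their midpoints from that of Tnf in kb; Tnf and its 5 neighbours are red, other genes grey. Tnf stands at −1.99 and Lst1 at −0.79, and the other genes lie between −0.62 and 0.40.

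The genes were also related to the cell makeup of the pad. Members were set against a mean of 19 macrophage genes, a mean of 23 T and B cell genes, and Tnf, over 20 mice centred within genotype and batch. Of 17 relations, 8 passed adjustment over the 17 (Pearson's r, permutation p). Whether these relations differ between genes was not tested. Macrophage and lymphocyte means rose together (Pearson's r = 0.59, permutation p = 0.00063; Spearman's rho = 0.68, p = 0.00055; r = 0.74 without cre replicates 7 and 9, and 0.58 and 0.77 in batches 1 and 2), and their parts in a relation cannot be told apart.

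Lst1 and Aif1 followed the macrophage mean. For Lst1 Pearson's r was 0.69 (permutation p = 0.00039, adjusted p = 0.00191) and Spearman's rho 0.71 (permutation p = 0.00026, adjusted p = 0.00147). Its r was 0.70 without cre replicates 7 and 9, the mice farthest from the median macrophage mean, 0.89 in batch 1 (adjusted p = 0.00102) and 0.58 in batch 2, where it did not pass (adjusted p = 0.229). For Aif1 Pearson's r was 0.76 (permutation p = 0.00045, adjusted p = 0.00191) and Spearman's rho 0.79 (permutation p = 0.00049, adjusted p = 0.00208), and r was 0.84 without the same mice, 0.79 in batch 1 and 0.76 in batch 2, neither past adjustment (adjusted p = 0.0539 and 0.0809). Aif1 also followed the T and B cell mean, with Pearson's r = 0.87 (permutation p = 1e-05, the smallest the resampling can give, adjusted p = 0.00017) and Spearman's rho = 0.86 (permutation p = 1e-05, adjusted p = 0.00017). This r was 0.81 without wt replicates 2 and 9, the mice farthest from the median of that mean, and 0.90 and 0.89 in batches 1 and 2, both past adjustment.

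Lst1 followed the T and B cell mean as well, with Pearson's r = 0.66 (permutation p = 0.00373, adjusted p = 0.0106) and Spearman's rho = 0.65 (permutation p = 0.00537, adjusted p = 0.0130), 0.65 without wt replicates 2 and 9, and 0.70 and 0.63 by batch, neither past adjustment.

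Ltb followed the lymphocyte mean. Pearson's r was 0.86 (permutation p = 0.00015, adjusted p = 0.00128) and Spearman's rho 0.83 (permutation p = 0.00014, adjusted p = 0.00119), 0.68 without wt replicates 2 and 9, and 0.82 and 0.88 in batches 1 and 2, of which the first did not pass (adjusted p = 0.0727). Among wt mice r was 0.92 (adjusted p = 0.0126), and among cre mice it was 0.63 and did not pass (adjusted p = 0.334). Against the macrophage mean its r was 0.63 (permutation p = 0.00065, adjusted p = 0.00221), with a rho of 0.59 (permutation p = 0.00455, adjusted p = 0.0130), 0.76 without cre replicates 7 and 9, and 0.60 and 0.89 by batch, of which the first did not pass (adjusted p = 0.151). Lta followed neither mean (r = −0.02 and 0.25, adjusted p = 0.916 and 0.386). Nor did Nfkbil1 pass, with r = −0.50 against the macrophage mean (adjusted p = 0.0859) and −0.32 against the lymphocyte mean (adjusted p = 0.253).

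Tnf followed the macrophage mean with Pearson's r = 0.49 (permutation p = 0.0169, adjusted p = 0.0360) and Spearman's rho = 0.51 (permutation p = 0.0201, adjusted p = 0.0379), and with r = 0.69 without cre replicates 7 and 9. By batch r was 0.53 and 0.49, neither past adjustment. Among wt mice r was 0.81 (adjusted p = 0.0523) and among cre mice 0.17 (adjusted p = 0.681), so it passed in neither genotype alone. Cre replicates 7 and 9 had the lowest macrophage means (11.31 and 10.80), and the slopes that follow were not fitted without them. Per log2 unit of the macrophage mean, Tnf was higher by 0.84 (SE 0.21) in wt and by 0.07 (SE 0.16) in cre mice. The test of this difference between slopes, chosen after the relations were seen, had an unadjusted p of 0.00895, a level under 0.05 reached by 4.57% of all probe sets, and did not pass limma's adjustment (adjusted p = 0.964). The slope of Aif1 was likewise 1.78 (SE 0.28) in wt and 0.65 (SE 0.21) in cre mice (unadjusted p = 0.00486, limma adjusted p = 0.964), and that of Lst1 0.63 (SE 0.21) and 0.38 (SE 0.16). Tnf and Lst1 were related across mice with r = 0.64 (permutation p = 0.00930, adjusted p = 0.0226) and rho = 0.68 (permutation p = 0.00517, adjusted p = 0.0130), 0.63 and 0.67 by batch. Tnf and the lymphocyte mean had an r of 0.57 that did not pass (permutation p = 0.0382, adjusted p = 0.0650) and a rho of 0.63 that did (permutation p = 0.0132, adjusted p = 0.0280), with an r of 0.39 without wt replicates 2 and 9. The relation of Tnf with Lst1 did not pass adjustment in either batch (adjusted p = 0.234 and 0.136) or without wt replicates 5 and 2, the mice farthest from the median Tnf signal, where r was 0.55 (permutation p = 0.0460, adjusted p = 0.0978).

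**Figure D3:**
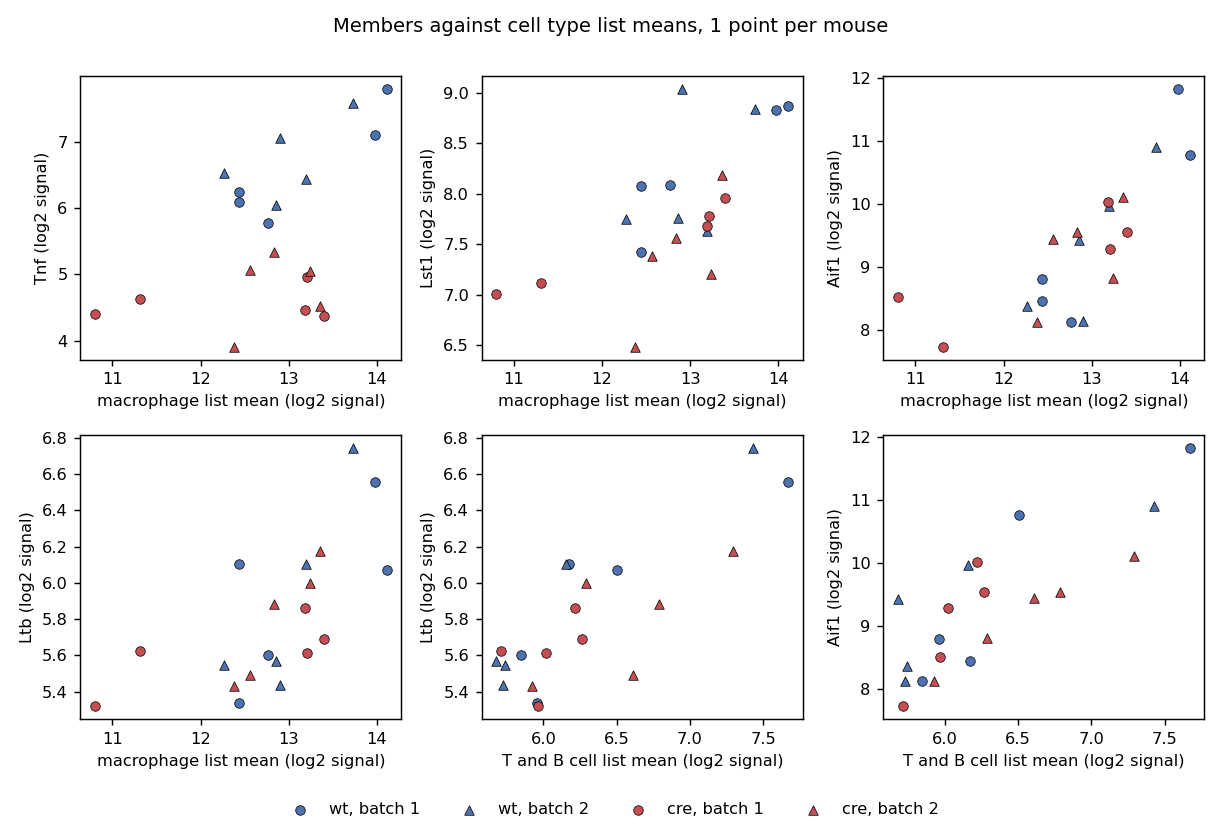
Log2 signal of a gene (vertical) against the mean log2 signal of 19 macrophage genes or of 23 T and B cell genes (horizontal), 1 point per mouse (wt blue, cre red, circles batch 1, triangles batch 2). Tnf had an r of 0.81 with the macrophage mean among wt mice and 0.17 among cre mice, neither past adjustment; with the T and B cell mean Aif1 had 0.87 and 0.86, both past adjustment, and Ltb 0.92 and 0.63, the second not past it.

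Of the macrophage list, 18 of 19 genes had a lower mean in cre, where 49.3% of all probe sets had one. In limma's fit 0 passed adjustment and 2 were lower with an unadjusted p under 0.05, as 3.05% of all probe sets were. The list mean differed by −0.44 (exact permutation within batches p = 0.244). The fit with the macrophage mean as a covariate gave both genotypes the same slope. The slopes given above for Tnf and Aif1 differed with an unadjusted p under 0.05 in limma, without passing adjustment. The values of both genes in this fit therefore depend on that shared slope. At an equal macrophage mean the difference of Tnf was −1.84 (95% interval −2.35 to −1.32, limma adjusted p = 0.000607). That of Lst1 was −0.59 (95% interval −1.02 to −0.15, unadjusted p = 0.00670, limma adjusted p = 0.702), against −0.79 before. That of Aif1 turned from −0.36 to 0.10 (95% interval −0.64 to 0.84), and those of Lta, Ltb and Nfkbil1 were −0.00, −0.06 and −0.03. An unadjusted p under 0.05 was reached by 2 of the 6 genes, Tnf and Lst1, beside 6.3% of all probe sets. In this fit 0.00901% of probe sets passed adjustment, namely Tnf and Lyz2 (−1.20, limma adjusted p = 0.000607). Lyz2 is the lysozyme gene of myeloid cells into which the Cre of this line is inserted. In the main fit, without the macrophage mean, Lyz2 differed by −1.55 (limma unadjusted p = 1.95e-05, exact permutation p = 0.000126). It did not pass, though its limma adjusted p = 0.176 was the smallest of all probe sets but Tnf.

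The genes whose values were most like those of a member were ranked by Pearson's r over the 20 mice, centred within genotype and batch, among 18588 probe sets with a named gene. These are descriptions of 20 arrays that share tissue makeup. For Tnf the 5 highest were Ppp1r12c (0.86), Actl6a (0.85), Ccl12 (0.85), Apaf1 (0.82) and Limd2 (0.82), of which Ccl12 is a monocyte chemokine gene. Its neighbours Lst1, Aif1, Ltb, Lta and Nfkbil1 took places 314, 704, 1292, 5975 and 12550. For Ltb the highest were Tox (0.92), Icos (0.92), Rhoh (0.90), Fgl2 (0.90) and Il2rb (0.89). Tox, Icos, Rhoh and Il2rb are genes of T cells and other lymphocytes, and Icos is itself 1 of the 23 genes of the lymphocyte mean. For Aif1 they were Gpr65 (0.91), Gpr174 (0.90), Ccl5 (0.90), Ptpn6 (0.88) and Ms4a4b (0.88). Aif1 had an r of 0.87 with the T and B cell mean and of 0.76 with the macrophage mean, and whether these differ was not tested. For Lst1 they were Tbc1d2b (0.90), Irf9 (0.88), Samhd1 (0.88), Dbnl (0.86) and Snu13 (0.86), of which Irf9 and Samhd1 belong to the interferon response. For Lta they were Ucn2 (0.80), Dmrtc1b (0.78), Sgca (0.77), H2bc1 (0.77) and Slc30a8 (0.76), and for Nfkbil1 Wdr3 (0.82), Olfr1134 (0.77), Ccdc159 (0.76), Krt73 (0.76) and Zwilch (0.74). 

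The machinery on which these ligands act showed no gene past adjustment. Of 41 listed genes of TNF and lymphotoxin signalling, 37 were measured, 27 with a lower and 10 with a higher mean in cre, where 49.3% of all probe sets had a lower one, with a median difference of −0.07. In limma's fit 0 passed adjustment and 2, both lower, had an unadjusted p under 0.05, as 3.05% of all probe sets did in that direction. The receptor genes differed by −0.21 for Tnfrsf1a (TNFR1; 95% interval −0.61 to 0.20), −0.61 for Tnfrsf1b (TNFR2; −1.56 to 0.35), −0.19 for Ltbr (−0.54 to 0.16) and 0.16 for Tnfrsf14 (−0.12 to 0.44). In batches 1 and 2 the difference was −1.49 and 0.28 for Tnfrsf1b, −0.53 and 0.12 for Tnfrsf1a, and −0.51 and 0.13 for Ltbr. For Tnfrsf14 it was 0.19 and 0.13. The cause of these batch values was not tested. Adam17, the protease that sheds TNF-α, differed by −0.02 (−0.53 to 0.49) and Rhbdf2, which encodes its partner iRhom2, by 0.02 (−0.35 to 0.40). The genes with an unadjusted p under 0.05 were Rnf31, which encodes the enzyme HOIP that builds linear ubiquitin chains, with −0.71 (SE 0.17, limma adjusted p = 0.551), and Casp8, the protease of death receptor signalling, with −0.43 (SE 0.20, limma adjusted p = 0.785). Frmd8, a stabiliser of the iRhoms, followed with −0.35, and the higher means were those of the kinase gene Map3k7 (0.23), the IKK subunit gene Ikbkg (0.22) and the caspase-8 inhibitor gene Cflar (0.20).

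**Figure D4:**
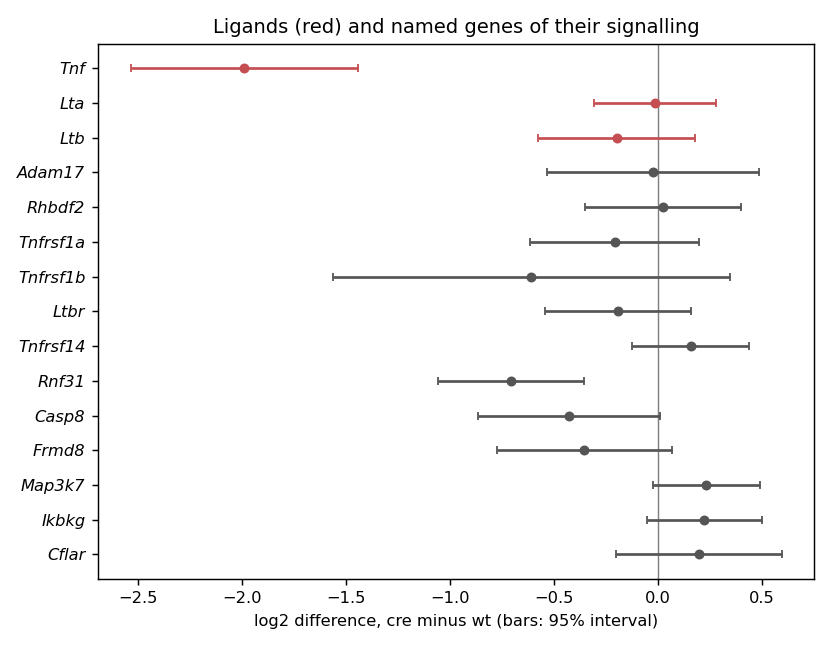
Log2 difference (cre minus wt, bars 95% interval, n = 10 mice per genotype) of the 3 ligand genes (red) and of the named genes of their signalling (grey). The Tnf interval (−2.54 to −1.44) overlaps only that of Tnfrsf1b (−1.56 to 0.35); the intervals of Rnf31 and Tnf leave out 0 and the rest include it.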

How the data were processed

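Total RNA of 20 fat pads was isolated with a lipid tissue kit and labelled with the GeneChip WT PLUS kit, as the labels' protocols state. For 22206 probe sets the authors deposited log2 signals. The tools named in the submitters' processing notes are RMA and Transcriptome Analysis Console 4.0.2.15, with the build mm10. RMA makes arrays alike, so a shift shared by most genes would be lost. Whether the authors adjusted for batch is not given in the sources used here.

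Groups, batches and replicate numbers came from the sample titles. Of the probe sets, 19572 had 1 symbol and 2634 none. The genotype comparison used limma 3.58.1 (R 4.3.3), with genotype and batch as terms and Benjamini-Hochberg adjustment over all probe sets at 0.05. The code was tested on simulated data. Permutations (100000 resamples for relations, all regroupings otherwise) used Python 3.11.15 and NumPy 2.4.6. Intervals are 95% intervals of the linear model, without limma's pooled variance. With Ddx39b unmeasured, 17 relations and 5 comparisons with Tnf remained of the 20 and 6 planned. Members and lists were chosen with earlier results of these data known. Named in the text were all 6 members, Lyz2, class III list genes within 100 kb, receptors and shedding genes, up to 3 others per list and direction by smallest p, and the 5 most alike genes per member.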

Additional observations from a re-analysis of the deposited data

How the results depend on the processing

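The Tnf difference stayed between −2.08 and −1.84 over the alternatives run. It no longer passed limma's adjustment in batch 1 alone (−2.03, adjusted p = 0.676) and batch 2 alone (−1.95, adjusted p = 0.837), fits with 10 mice, or with the replicate block (−1.99, adjusted p = 0.0568), a fit with fewer residual degrees of freedom. In these 3 limma fits 0 probe sets and 0 class III genes passed, while 1603, 1001 and 1293 probe sets had an unadjusted p under 0.05. Over all probe sets same-numbered mice were not clearly alike. Correlations of their deviations ran from −0.30 to 0.34, with 4 of 10 above 0.1, and 1 of 10 wt mice was closest to its own number. Shared tissue makeup enters these correlations, so they cannot exclude a pairing. With the block the SE was lower for Aif1 (0.32 against 0.45), Ltb (0.16 against 0.18) and Nfkbil1. It was higher for Tnf (0.26 against 0.24), Lst1 and Lta. Leaving out single mice kept Tnf between −2.08 and −1.85 (limma adjusted p from 0.000441 to 0.00322), with 1 class III gene past adjustment each time and 1 to 2 probe sets. The second was Lyz2 without wt replicate 4 (−1.69, limma adjusted p = 0.0375). With the macrophage mean as a covariate 2 probe sets passed, and the study's thresholds applied to the main limma fit took 232. The Tnf difference minus that of Aif1 no longer passed in batch 1 alone (−1.46).

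The Lta difference turned to 0.18 in batch 2 alone, 0.014 with quantile normalization again and 0.0012 with the 4 mice that liver or seminal vesicle genes set apart removed, a step chosen after seeing the data. It ran from −0.074 to 0.043 over single-mouse omissions. With the macrophage covariate Aif1 turned to 0.10 and Nfkbil1 to −0.030, and over single-mouse omissions Nfkbil1 ran from −0.021 to 0.076. These 3 genes passed in none of the fits, and the cause was not tested. Lst1 kept its direction in every fit (−0.92 to −0.59) and did not pass in any (limma adjusted p from 0.574 to 0.942).

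Of 17 relations, 3 passed among wt mice, 4 among cre mice, 2 in batch 1 and 3 in batch 2, where 10 mice remain, and 7 without the farthest mice, against 8 in all. Some relations that did not pass turned sign. These were Lta with the macrophage mean (0.53 in wt, 0.064 in batch 1, 0.19 without the farthest mice), Lta with the lymphocyte mean (−0.091 in cre, −0.055 without the farthest mice), Lta with Tnf (−0.35 in cre, −0.065 in batch 2, −0.048 without the farthest mice), Nfkbil1 with Tnf (0.051 in cre, 0.27 without the farthest mice) and Nfkbil1 with the lymphocyte mean (0.17 in batch 1).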
